A study of Malus domestica with 6 samples.

Results

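MdPG1 is the apple polygalacturonase gene known from fruit softening, and it is followed here as 1 gene, MD10G1179100, of the 48602 rows in the fruit skin tables. The row was chosen by its identifier, and the name MdPG1 comes from the rule that chose it. The tables hold identifiers without names, and this name was not checked against a sequence or annotation. By the naming of the GDDH13 apple genome, MD10 places the gene on chromosome 10. RNA was sequenced from the skin of mature fruit of 'Royal Gala', an apple cultivar (Malus domestica), in 2 genotypes with 3 libraries each. The WT libraries come from wild-type plants and the miR172 libraries from plants of the same cultivar that carry a miR172 transgene. The sources used here do not give the promoter of the transgene or the number of transgenic lines. Should all miR172 libraries be of 1 line, its own effect and that of miR172 cannot be told apart. The labels call the libraries of each genotype biological samples, but whether they are separate trees or fruit is not stated either. P-values measure only the spread between these libraries. Flower libraries of the same study were not analysed here.

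Polygalacturonases cut the homogalacturonan backbone of pectin, the polymer that holds plant cells together in the wall and the middle lamella. In apple, MdPG1 transcripts are known to build up late in ripening under the control of ethylene, and lower MdPG1 activity is known to leave fruit firmer. miR172, a small regulatory RNA, lowers the output of APETALA2-type transcription factor genes, and the title of the study ties it to anthocyanin, the red pigment of apple skin. The comparison below asks how the MdPG1 transcript stood in the skin of each genotype.

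Values are FPKM as the authors deposited them, a unit of fragments that corrects for gene length and library size. Whole reads were recovered from these values, and the libraries held between 17012710 and 23702606 of them. Among the 6 libraries, WT replicate 1 and miR172 replicate 3 stood apart from the others of their genotype. For each of the 24668 genes tested, the value of a library was set against the mean of the other libraries of its genotype and against the mean of the other genotype, on the log2(FPKM + 1) scale. WT replicate 1 lay closer to the other genotype at 12339 of the genes and miR172 replicate 3 at 11181, while the other libraries did so at 7776 to 8926. What set them apart was not tested, and the labels were taken as given. Tests of single genes are therefore given with and without these libraries. Tissue and ripeness markers were not tested, for want of gene names.

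MdPG1 was detected in all 6 libraries, at levels that ran over a 274-fold range. In WT skin it stood at 19.6 FPKM in replicate 1, 546 FPKM in replicate 2 and 400 FPKM in replicate 3. In miR172 skin it stood at 1.99 FPKM in replicate 1, 4.71 FPKM in replicate 2 and 54.8 FPKM in replicate 3. WT replicates 2 and 3 were thus far above every miR172 library, but WT replicate 1 lay below miR172 replicate 3, and the genotypes overlapped. From the highest level to the lowest, the order was WT replicate 2, WT replicate 3, miR172 replicate 3, WT replicate 1, miR172 replicate 2 and miR172 replicate 1.

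Counting error was small beside these distances. In WT skin 579 reads stood behind the value of replicate 1, 13695 behind that of replicate 2 and 14331 behind that of replicate 3. In miR172 skin these were 82, 206 and 1636 reads. The exact 95% Poisson interval of the lowest value was 1.58 to 2.47 FPKM and that of the highest 537 to 555 FPKM. No intervals of libraries next to each other in the order overlapped. These intervals cover counting error only. The closest neighbours were WT replicates 2 and 3, at a ratio of 1.37, and the widest step was the 7.29-fold one from WT replicate 3 down to miR172 replicate 3. In bulk tissue, fewer cells that express a gene and less RNA per cell cannot be told apart.

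**Figure D1:**
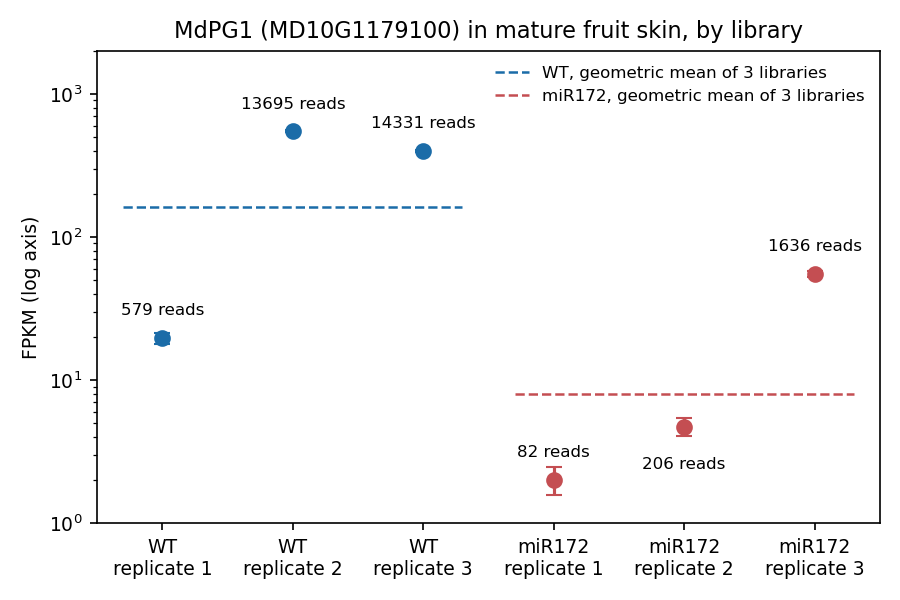
Level of MdPG1 in each of the 6 fruit skin libraries, in FPKM on a log axis, with exact 95% Poisson intervals (hidden behind the point where narrow), the number of recovered reads and the geometric mean of each genotype as a dashed line (162 FPKM in WT, 8.01 FPKM in miR172). WT replicates 2 and 3 are the highest at 546 and 400 FPKM, and miR172 replicate 3 at 54.8 FPKM lies above WT replicate 1 at 19.6 FPKM.

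The same spread appears in the place that MdPG1 took among the transcripts of each library. It was the gene with rank 167 in WT replicate 2 and rank 242 in WT replicate 3, within the top 0.632% and 0.764% of the genes above 0 in those libraries. In WT replicate 1 its rank was 6385, within the top 21.1%. In miR172 skin the gene had rank 22149 in replicate 1, rank 16272 in replicate 2 and rank 2504 in replicate 3, the last within the top 8.64%. MdPG1 was therefore among the most abundant transcripts in 2 of the 3 WT libraries and in none of the miR172 libraries.

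As a share of recovered reads, MdPG1 took 0.00305% (exact Clopper-Pearson 95% interval 0.00281 to 0.00331%) in WT replicate 1, 0.0805% (0.0792 to 0.0819%) in WT replicate 2 and 0.0605% (0.0595 to 0.0615%) in WT replicate 3. In miR172 skin its share was 0.000423% (0.000337 to 0.000526%) in replicate 1, 0.000903% (0.000784 to 0.00104%) in replicate 2 and 0.00872% (0.0083 to 0.00915%) in replicate 3. These shares do not use the scaling between libraries that the deposited FPKM carry, and they keep the order of the libraries. After FPKM were scaled to the recovered totals, WT replicate 1 was at 17.3 FPKM and miR172 replicate 3 at 49.3 FPKM, so the overlap remained.

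The mean level of MdPG1 was lower in miR172 skin, but the difference did not pass the test. WT skin averaged 322 ± 272 FPKM and miR172 skin 20.5 ± 29.7 FPKM (SD, n = 3 each), a 15.7-fold difference of means. The difference of geometric means was 20.3-fold. On the log2(FPKM + 1) scale the means were 7.37 ± 2.61 in WT and 3.30 ± 2.22 in miR172 (SD, n = 3 each). The log2 fold change, miR172 against WT, was -4.07 ± 1.40 (SE), with a 95% interval from -7.29 to -0.85. Its unadjusted p was 0.019 and its adjusted p was 0.12 (limma, Benjamini-Hochberg over all 24668 genes tested), above the threshold of 0.05. limma draws the SD of each gene toward those of other genes. For MdPG1 it used an SD of 1.72, below the 2.42 of its own log2 values within genotypes. The SE, interval and limma p therefore rest on less spread than its own replicates show. An exact two-sided permutation test of the 6 log2 values gave p = 0.2, where 3 libraries against 3 cannot go below 0.1. The WT library was higher in 8 of the 9 pairs of a WT and a miR172 library, the exception being WT replicate 1 with miR172 replicate 3.

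Across all genes, 8.59% passed the same test, and 3.35% passed as lower in miR172 skin. The values of the genotypes did not overlap at 30.1% of the genes tested, and MdPG1 was not one of these. In size, its fold change ranked 35 among 24668 from the most negative up, so that 0.142% of genes were at or below it. Of these 35 genes, 30 passed the threshold and 5 did not, MdPG1 among them.

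The test of MdPG1 turned on single libraries. Without WT replicate 1, the mean WT level was 473 FPKM and the genotypes were apart, with the lower WT library 7.29-fold above the highest miR172 library. The log2 fold change was then -5.57 ± 1.08 (SE), and the adjusted p was 0.022 (limma), so MdPG1 passed as lower in miR172 skin. The SD that limma used there was 1.19, against 1.82 from the gene's own libraries. In that setting 10.6% of all genes passed, and 4.71% passed as lower. Without miR172 replicate 3 the mean miR172 level was 3.35 FPKM, which is 96.1-fold below the WT mean, and the lowest WT library was 4.15-fold above the higher miR172 library. The log2 fold change was then -5.32 ± 1.37 (SE), and the adjusted p was 0.059 (limma), just above the threshold. With any other library left out, the adjusted p was 0.30 to 0.32 (limma).

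**Figure D2:**
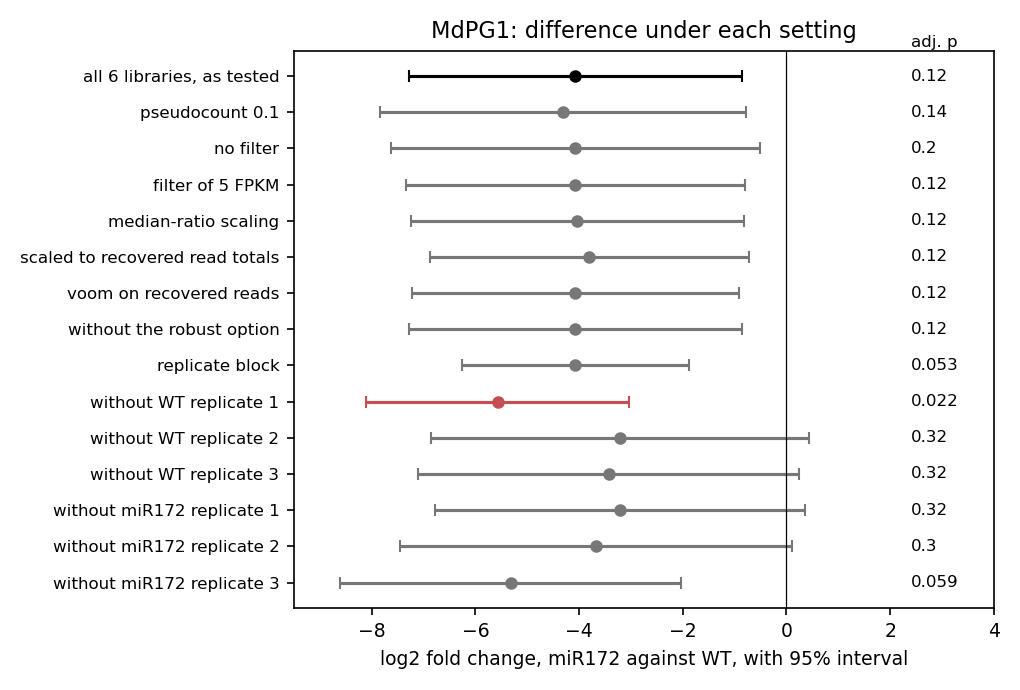
Log2 fold change of MdPG1, miR172 against WT fruit skin, with its 95% interval (horizontal axis) under each setting of the test (rows), with the limma adjusted p at the right. With all 6 libraries the value is -4.07 and the adjusted p 0.12, and the setting without WT replicate 1, drawn in red, is the one with an adjusted p under 0.05.

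MdPG1 was among the genes whose replicates differed most. Its libraries spanned 27.9-fold within WT and 27.5-fold within miR172. In WT, replicates 2 and 3 were 27.9-fold and 20.4-fold above replicate 1. In miR172, replicate 3 was 27.5-fold above replicate 1 and 11.6-fold above replicate 2. The spread within each genotype was therefore about as wide as the 20.3-fold distance between the geometric means. The SD of its log2 values within genotypes was 2.42, against a median of 0.386 over all genes tested, and its rank by this SD was 15 of 24668.

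Genes of similar abundance were mostly far steadier. Among the 1268 genes with a mean level within 2-fold of its own 171 FPKM, the median SD within WT was 0.322 and that of MdPG1 was 2.61. Only 2 of these genes, MdPG1 included, had a WT spread that wide. Within miR172 the median SD of the same genes was 0.359, that of MdPG1 was 2.22, and 10 genes including MdPG1 were at least as wide. That mean is set mostly by WT skin. Against the 7543 genes whose miR172 mean lay within 2-fold of its own 20.5 FPKM, chosen after the values were seen, the median SD within miR172 was 0.305, and 25 genes including MdPG1 were at least as wide. The standard error of its fold change, 1.40, compares with a median of 0.32 over all genes tested.

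**Figure D3:**
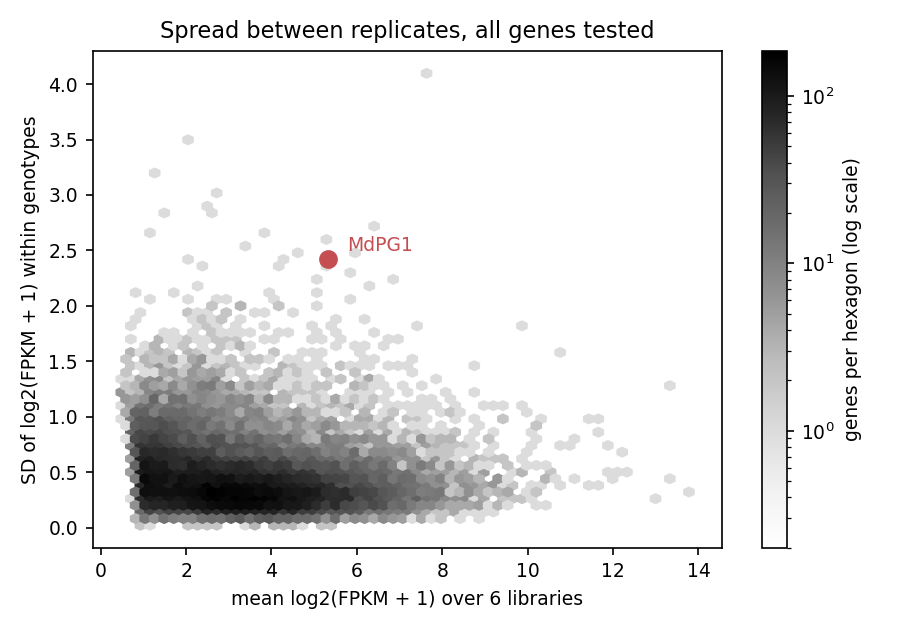
SD of log2(FPKM + 1) between libraries of the same genotype (vertical axis) against mean log2(FPKM + 1) over the 6 libraries (horizontal axis) for the 24668 genes tested, drawn as hexagons shaded by the number of genes. MdPG1, the red point, has an SD of 2.42, far above the median of 0.386.

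A range over libraries as wide as that of MdPG1 was uncommon. Of the 22445 genes that were both tested and above 0 in every library, 61 spanned at least 274-fold. WT replicates 2 and 3 were both at least 10-fold above WT replicate 1 at 107 of these 22445 genes, and miR172 replicate 3 was at least 10-fold above both other miR172 libraries at 34. MdPG1 was 1 of 3 genes that did both. These conditions follow the pattern seen at MdPG1, so that it met them was given in advance. The other genes, MD02G1112500 and MD09G1049600, were picked out by their values, and neither approached the level of MdPG1. MD02G1112500 reached 5.61 FPKM at most, in miR172 replicate 3, and MD09G1049600 reached 16.1 FPKM, in WT replicate 2. In WT replicate 1 they stood near the floor, at 0.0636 and 0.0941 FPKM. The order of the 6 libraries at MdPG1 was that of 258 of the 22445 genes, MdPG1 included, or 1.15%.

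Other transcripts followed MdPG1 across the libraries, and the closest of them over a narrower range. Likeness was measured as Pearson's r of log2(FPKM + 1) over the 6 libraries, which gives a description only, since the points share genotype and scaling. Of the other genes tested, 353 had an r of at least 0.95 with MdPG1, and 161 ran as closely in the opposite direction. Among the 350 of the 353 that were above 0 in all libraries, the median range over libraries was 2.73-fold and the widest 69.7-fold, both below the 274-fold range of MdPG1. Of the 353 genes, 9 (2.55%) passed the test between genotypes, all as lower in miR172 skin, a smaller share than the 8.59% (3.35% as lower) of all genes tested. The median of the 353 in log2 fold change was -0.69, against -0.0033 over all genes tested. That direction, and the share that passed, follow from choosing genes that move with MdPG1, which overlapped between genotypes and did not pass. The share is therefore no result about these genes. At an r of at least 0.9 there were 1021 genes, of which 69 (6.76%) passed, all as lower. Among these, 3 spanned more than MdPG1, the widest 1142-fold, and 3 had a more negative log2 fold change, the lowest -6.07.

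MD03G1116100 was the gene most like MdPG1, with r = 0.996 over 6 libraries. It stood at 49.2, 120 and 98.0 FPKM in WT replicates 1, 2 and 3 and at 28.0, 32.5 and 57.7 FPKM in miR172 replicates 1, 2 and 3. Its libraries kept the order seen at MdPG1, with miR172 replicate 3 above WT replicate 1, but spanned only 4.29-fold. The genotypes differed by -1.13 ± 0.40 (SE) on the log2 scale (limma adjusted p = 0.13). When libraries were left out, the adjusted p was 0.035 without WT replicate 1 and 0.072 without miR172 replicate 3 (limma), and 0.32 to 0.34 with any other library left out. MD03G1116100 was picked for its likeness to MdPG1 over these same libraries. Its order of libraries and these tests therefore largely follow from that choice and are no separate evidence about MdPG1.

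MD13G1150900 was the next, with r = 0.995 over 6 libraries. It stood at 140.3, 621 and 505 FPKM in the WT replicates and at 84.5, 102 and 234 FPKM in the miR172 replicates. It was thus near MdPG1 in level in WT replicates 2 and 3, and well above it in every other library. The log2 fold change came to -1.47 ± 0.61 (SE), at an adjusted p of 0.19 (limma). The adjusted p was 0.026 without WT replicate 1 and 0.11 without miR172 replicate 3 (limma), and 0.40 to 0.43 with any other library left out. As MD13G1150900 was picked in the same way, its tests too largely repeat the pattern of MdPG1.

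Identifiers follow the order of genes along the chromosome, and the genes next to MdPG1 did not share its wide spread. By that spread MdPG1 ranked 15 of 24668, so nearly any small group of genes would lack it. MD10G1179000, the tested identifier just before it, stood at 8.31, 19.7 and 17.5 FPKM in the WT replicates and at 9.80, 9.54 and 7.06 FPKM in the miR172 replicates. WT replicates 2 and 3 were again the highest, but miR172 replicate 3 was the lowest of all, and the log2 fold change was -0.65 ± 0.34 (SE), at an adjusted p of 0.28 (limma). The adjusted p was 0.044 without WT replicate 1, 0.44 without miR172 replicate 3 and 0.39 to 0.57 with any other library left out (limma). Its r with MdPG1 was 0.723 over the 6 libraries. MD10G1179200, just after it, stood at 9.73, 6.97 and 5.41 FPKM in WT and at 8.55, 8.99 and 8.14 FPKM in miR172. There WT replicate 1 was the highest and WT replicate 3 the lowest, and the genotypes differed by 0.22 ± 0.26 (SE) on the log2 scale, at an adjusted p of 0.65 (limma), or 0.31 without WT replicate 1 and 0.63 without miR172 replicate 3. Its r with MdPG1 was -0.781.

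Within 5 identifiers on each side, 6 of 10 were tested. Their SD within genotypes ran from 0.22 to 0.911, against 2.42 for MdPG1 and a median of 0.386 over all genes tested. Of the 6, 1 passed the test, against 8.59% of all genes. This gene, MD10G1179400, is named here because of that call. It rose in miR172 skin, from 40.5, 39.9 and 46.4 FPKM in the WT replicates to 87.1, 72.4 and 108.5 FPKM in the miR172 replicates, with no overlap. The rise was 1.05 ± 0.24 (SE) on the log2 scale, at an adjusted p of 0.035 (limma). The call was lost without WT replicate 1 (adjusted p = 0.055), without miR172 replicate 3 (0.050) and with any other library left out (0.076 to 0.12, limma). Reads shared with near-identical gene copies, which could raise or lower the MdPG1 values, were not looked for.

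**Figure D4:**
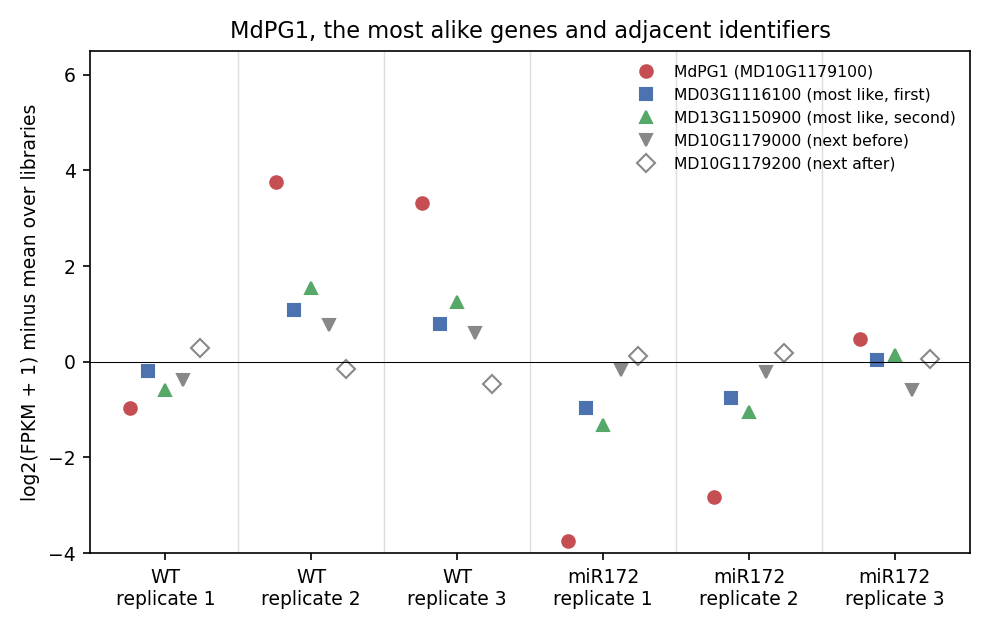
Log2(FPKM + 1) minus its mean over the 6 libraries (vertical axis) in each library (horizontal axis) for MdPG1, the most alike genes MD03G1116100 and MD13G1150900, and the adjacent identifiers MD10G1179000 and MD10G1179200. The alike genes keep the order of MdPG1 over a narrower range (4.29-fold and 7.35-fold against 274-fold), while the adjacent identifiers have an r of 0.723 and -0.781 with MdPG1 and place the libraries in another order.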

How the data were processed

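RNA-seq libraries of mature fruit skin, 3 per genotype, were analysed. Per the labels' protocols, strand-specific poly-A libraries were sequenced as read pairs, and Bowtie2 placed the reads on GDDH13. Further tools, named without roles in the submitters' processing notes, are HISAT2 2.0.5, StringTie 1.3.3b, featureCounts 1.5.0-p3 and DESeq2 1.16.1. The annotation release and strand setting were not given in the sources used here. Deposited values are FPKM, per the file headers, in 1 column per library. Another 12 per-sample columns in 4 tables matched no described sample and were not used.

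Whole reads were recovered as FPKM × length × library divisor, taking the shortest length of 50 to 40000 bases that gave whole numbers throughout (tolerance 0.0001 reads, plus 3e-09 of the value). This worked for 37804 of 37804 genes above 0. For MD10G1179100 the length was 1770 bases. The divisors were 0.833 to 1.20 times the read totals, so the FPKM carry a scaling between libraries of unstated method.

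Genotypes were compared with limma 3.58.1 in R 4.3.3 (mean-variance trend, robust empirical Bayes, two-sided) on log2(FPKM + 1), for genes whose mean reached 1 FPKM. Fold changes on this scale understate those of low genes. P-values were adjusted over all genes tested, with a threshold of 0.05. The exact permutation test used SciPy 1.17.1. The scripts were tested on simulated data. The named genes are MD10G1179100, the 2 tested genes with the highest Pearson's r with it, and the tested identifiers just before and after it. Any other gene is named for its values and marked so. The member, rules and tests were chosen with earlier results of these data known. A list of cell wall and ripening genes and tissue markers were laid down but could not be used: 0 of 48602 identifiers matched an entry of the gene table at hand, which belongs to the assembly GDT2T_hap1. No sequence was used.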

Additional observations from a re-analysis of the deposited data

How the results depend on the processing

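MdPG1 was lower in miR172 skin under all 14 alternatives run, and it passed the threshold in 1 of them, without WT replicate 1. Leaving out each library gave a log2 fold change of -5.57 to -3.21 and an adjusted p of 0.022 to 0.32 (limma). The 7 changes of pseudocount, filter, scaling, test or robust option gave adjusted p of 0.12 to 0.20. With the replicate number as a block, the adjusted p was 0.053 (log2 fold change -4.07) and 2308 genes passed. MD10G1179400 lost its call with no filter (adjusted p = 0.055). Same-numbered libraries correlated in their deviations at 0.039 to 0.101, and differently numbered ones at -0.152 to 0.103. Of the 6 libraries, 4 correlated best with their own number. Whether the numbers pair the libraries was not settled by these values, and the main test did not use them. Of all genes, 2118 passed as reported, 1065 with voom on recovered reads and 825 to 2627 with a library left out; the cause was not tested. With scaling to recovered totals the median over all genes went from -0.0033 to 0.25 (log2) and the higher share of calls from 61.0 to 78.2%, and MdPG1 was then at -3.81. Spearman's rho with MdPG1 was 1 for MD03G1116100 and 1 for MD13G1150900, as for every other gene among the 258 with the same order of libraries, so by rank these genes were not singled out as the most alike. Over the 56 settings of the 4 other genes named by rule, 52 kept direction and side of the threshold and 4 passed it: MD03G1116100, MD13G1150900 and MD10G1179000 without WT replicate 1, and MD13G1150900 with the block (adjusted p = 0.047). MD03G1116100 and MD13G1150900 were picked for their likeness to MdPG1, so their calls are no separate evidence. The spread percentile of MdPG1 with a pseudocount of 0.1, an alternative chosen after seeing the data, stayed at 99.8% in WT and 99.2% in miR172. MdPG1 held at least 82 reads in each library.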
